A study of Vitis vinifera with 24 samples.

Results

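Embryogenic callus of the grapevine cultivar Cabernet Sauvignon (CS) was compared with undifferentiated CS callus taken on day 40 of culture (40D). The members are the loci that reached 1 FPKM in at least 3 of these 6 RNA-seq libraries, 3 per callus, where FPKM is the number of sequenced fragments of a locus after scaling by its length and by the library's mapped total. This left 19265 of the 29971 loci in the deposited table. The whole study held 24 libraries, 3 in each of 8 groups: anthers, 40D callus, embryogenic callus (EC) and callus that was not embryogenic (NEC), from CS and from a second cultivar, Sangiovese (SG). The submitters rate CS as poorly competent for embryogenesis.

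Every callus came from anthers cut out of immature flowers and kept in the dark at 26 °C on an induction medium with 4.5 µM 2,4-D, a synthetic auxin, and 8.9 µM BAP, a cytokinin. The 40D callus was taken during this induction. After 3 months the cultures moved for 1 month to a proliferation medium with 10 µM NOA and 20 µM IAA, which are auxins, 1 µM BAP and 2.5% activated charcoal, and at month 4 the calli were sorted by eye under a stereomicroscope into EC and NEC. EC and 40D callus therefore differ in type, in age and in the medium they last grew on, and these cannot be told apart in this comparison. The labels call the replicates biological but do not say whether each came from its own culture or plant, so the p-values measure the spread between these libraries, which may be technical.

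Somatic embryogenesis is the formation of embryos from cells of the plant body rather than from a fertilised egg. Cultured tissue first forms callus under auxin, and embryos grow from embryogenic callus once auxin falls. Grapevine cells are also a known source of defence proteins and of phenolic compounds such as flavonoids and the stilbene resveratrol. The table gives locus identifiers with no names, so the gene groups described here rest on published assignments of loci to families: 193 loci in 16 lists, of which 127 were members. No marker of embryo or callus identity could be tied to a locus from the sources used, so the label EC was not checked against such genes. The floral MADS-box genes served as markers of the flower tissue from which the calli arose.

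More loci were higher in EC than were lower, but among the most abundant loci more were lower. Of the 19265 members, 10650 were higher in EC (55.3%) and 5429 were lower (28.2%), at an adjusted p under 0.05 from limma with Benjamini-Hochberg adjustment, and 3186 were not called. With a log2 fold change of at least 1 asked for as well, 5481 were higher (28.5%) and 2830 lower (14.7%). The 3 EC libraries lay above the 3 40D libraries for 10861 members and below them for 5742. The balance of the directions depended on scaling. The median log2 fold change of all members was 0.40 on the deposited FPKM and 0.04 after median-of-ratios scaling. The share of calls that were higher was 66.2% on the deposited FPKM, 51.9% after median-of-ratios scaling and 72.5% when the libraries were brought to equal sums.

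The balance also moved with the level of the locus. Among the 7466 members with a mean of 1 to 10 FPKM over the 6 libraries, 57.3% were higher and 24.7% lower. Between 100 and 1000 FPKM, 44.1% of 1371 members were higher and 42.5% lower. Of the 69 members at 1000 FPKM or more, 20 were higher and 43 lower, with a median log2 fold change of -1.28.

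The RNA of 40D callus was concentrated in fewer loci. The 10 most abundant loci held 17.5% to 17.9% of the FPKM sum in the 40D libraries and 6.15% to 6.79% in the EC libraries, and the 100 most abundant held 34.3% to 34.6% and 19.2% to 19.8%. On the deposited FPKM, between 17592 and 17655 loci reached 1 FPKM in a 40D library and between 18383 and 18536 in an EC library. The lists of the 100 most abundant loci had 32 loci in common. Of the 40D list, 83 were lower in EC and 8 higher, and of the EC list, 73 were higher in EC and 15 lower. Each list was picked by the level in its own callus and leans to it by construction, so these counts are a description.

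**Figure D1:**
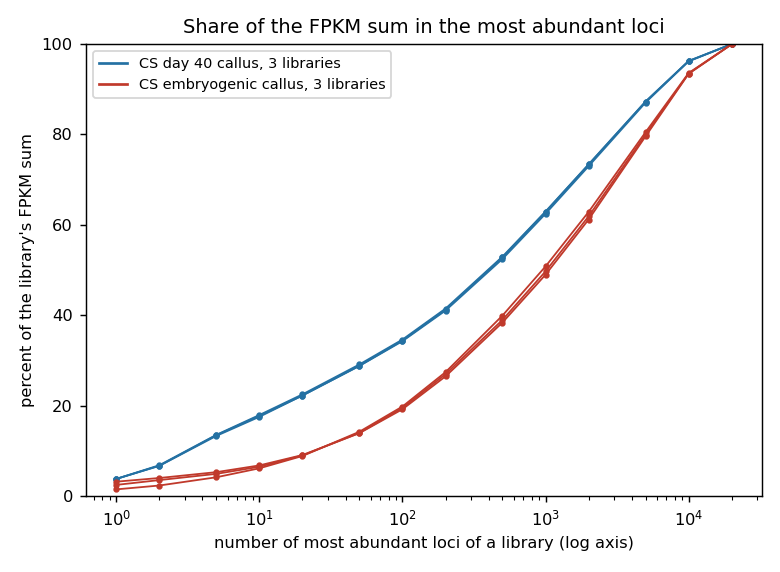
Share of each library's FPKM sum (y, percent) held by its most abundant loci (x, number of loci, log axis), with 1 line per library for CS 40D callus (blue) and CS EC (red). The 40D lines run above the EC lines, with 34.3% to 34.6% of the sum in 100 loci against 19.2% to 19.8%.

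A smaller set of loci crossed 1 FPKM between the calli. In all, 1404 loci had 1 FPKM or more in every EC library and less in every 40D library, and 894 loci had the reverse. These counts are on the deposited FPKM, and a fixed cut depends on the scaling. Median-of-ratios scaling divided the EC libraries by 1.18 to 1.23 and the 40D libraries by 0.912 to 0.923. Most were weakly expressed: the median was 3.26 FPKM in EC for the first set and 3.41 FPKM in 40D callus for the second, and 18 and 11 loci reached a mean of 100 FPKM. Of the 1404 loci present in EC, 23.9% had 1 FPKM or more in all 3 CS NEC libraries, 37.0% in all 3 CS anther libraries and 68.4% in all 3 SG EC libraries. Of the 894 loci present in 40D callus, the shares were 47.9% in CS NEC, 35.5% in CS anthers and 11.4% in SG EC. The sets were chosen by the CS EC and 40D values, so these shares are a description.

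**Figure D2:**
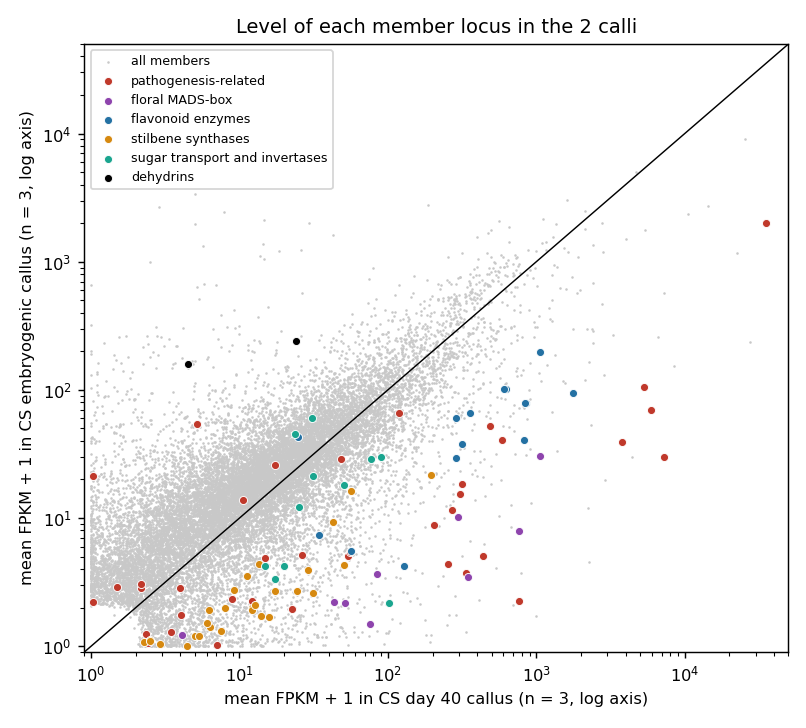
Mean level of each of the 19265 members in CS 40D callus (x) and CS EC (y), as FPKM + 1 on log axes, n = 3 libraries each, with the loci of 6 gene groups coloured and the line of equal level in black. Pathogenesis-related loci sit mostly below the line, with the most abundant at 35450 FPKM in 40D callus. Most floral and flavonoid loci are also below it, and both dehydrin loci sit above it.

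Pathogenesis-related (PR) proteins are families that plants make in quantity after infection, wounding or stress, and several of them attack fungal walls. Their RNA fell in EC to a small part of its level in 40D callus. The loci of the 5 PR lists made up 6.65% to 6.69% of the FPKM sum in the 40D libraries and 0.255% to 0.414% in the EC libraries. Their summed level was 61913, 62423 and 62026 FPKM in the 3 40D libraries and 2019, 3371 and 2512 FPKM in the 3 EC libraries, a ratio of the means of 23.6. The groups did not overlap. Over all members, 28.2% were lower and 55.3% higher, the shares to hold beside the counts of every list below. Of the 38 members of the 5 PR lists, 27 were lower, 6 were higher and 5 were not called. Their median log2 fold change was -2.63 against 0.40 for all members. CS NEC, of the same age and last medium as EC, held 8.73% to 9.75% of its sum in these loci, and CS anthers 0.305% to 0.342%. The EC libraries thus stood near the anthers, and the NEC libraries above 40D callus. In bulk tissue, fewer cells of a type and less RNA per cell cannot be told apart.

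PR10 proteins, small intracellular proteins related to the birch pollen allergen, made up the largest part of that sum. VIT_05s0077g01580, on chromosome 5, was the most abundant locus of 40D callus at 35366, 35689 and 35296 FPKM, and stood at 1387, 2756 and 1871 FPKM in EC. It fell by 4.20 on the log2(FPKM + 1) scale (SE 0.62, adjusted p = 4.4e-06). VIT_05s0077g01650 went from 605, 586 and 575 FPKM to 21.9, 59.6 and 37.1 FPKM, and VIT_05s0077g01670 from 326, 352 and 333 FPKM to 3.81, 1.20 and 3.24 FPKM. At all 3 loci every EC library lay below every 40D library. Of the 10 PR10 members, 9 fell, while 28.2% of all members were lower. The exception, VIT_05s0077g01700, was a minor locus that rose from 0.266, 0.604 and 0.606 FPKM to 1.24, 2.90 and 1.51 FPKM. PR10 loci are tandem copies that may share reads, so a single locus is less certain than the sum, which was 37139 ± 216 FPKM in 40D callus and 2095 ± 720 FPKM in EC (SD, n = 3).

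Thaumatin-like proteins and osmotins, which act against fungal membranes and walls, summed to 10807 ± 182 FPKM in 40D callus and 239 ± 15.5 FPKM in EC (SD, n = 3). VIT_02s0025g04300 had 5822, 5944 and 6138 FPKM in 40D callus and 75.7, 59.3 and 70.9 FPKM in EC. VIT_02s0025g04310 had 3769, 3760 and 3798 FPKM in 40D callus and 41.6, 33.3 and 38.9 FPKM in EC. Of the 8 members, 6 fell and 2 were not called. One of these, VIT_02s0025g04330, had 116, 122 and 117 FPKM in 40D callus and 55.3, 76.9 and 62.2 FPKM in EC. Its groups did not overlap, but its adjusted p was 0.24 in the fit over all 8 groups and 0.00095 when the 2 CS calli were fitted alone.

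Beta-1,3-glucanases, which cut a glucan of fungal walls and the plant's own callose, had the highest ratio of the PR lists, 222 between the summed means. VIT_08s0007g06040 went from 7338, 7220 and 7229 FPKM in 40D callus to 32.2, 24.6 and 30.5 FPKM in EC, and fell by 7.92 on the log2(FPKM + 1) scale (SE 0.63, adjusted p = 7.2e-10). VIT_08s0007g06060 went from 424, 441 and 440 FPKM to 2.26, 6.23 and 3.57 FPKM. All 4 members of this list fell, while 28.2% of all members were lower.

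Class IV chitinases, which cut the chitin of fungal walls, changed in both directions locus by locus. Their summed level went from 6390 ± 83.7 to 236 ± 12.7 FPKM (SD, n = 3), carried by VIT_05s0094g00340, which fell from 5321, 5359 and 5236 FPKM to 109, 100.0 and 102 FPKM. VIT_05s0094g00350 fell from 752, 770 and 777 FPKM to 1.92, 0.488 and 1.38 FPKM, and VIT_05s0094g00330 from 261, 298 and 246 FPKM to 10.0, 11.1 and 10.4 FPKM. Of the 11 members, 5 fell, 4 rose and 2 were not called, with a median log2 fold change of -0.49. The largest riser by level, VIT_05s0094g00210, had 3.09, 3.85 and 5.61 FPKM in 40D callus and 52.1, 51.3 and 57.4 FPKM in EC. VIT_05s0094g00280 was listed at 0, 0.103 and 0 FPKM in 40D callus and stood at 20.3, 19.4 and 20.8 FPKM in EC. The calls of the other 2 risers, VIT_05s0094g00300 and VIT_05s0094g00370, were lost under median-of-ratios scaling, with adjusted p of 0.43 and 0.83, and the first was also lost without 40D replicate 1, EC replicate 1 or EC replicate 3 (0.064, 0.094 and 0.070). Tandem copies may share reads here as well.

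PR1 proteins, small secreted proteins and the classical marker of salicylic acid defence, were a minor part of either callus. Their sum was 77.4 ± 2.27 FPKM in 40D callus, 30.1 ± 6.77 FPKM in EC and 5716 ± 161 FPKM in NEC (SD, n = 3). Of 5 members among 16 loci, 3 fell, 1 rose and 1 was not called. The most abundant, VIT_03s0088g00700, was the one not called, at 49.7, 47.2 and 45.6 FPKM in 40D callus and 33.2, 20.1 and 29.8 FPKM in EC (adjusted p = 0.12, or 0.0094 with the 2 CS calli fitted alone). VIT_03s0088g00690 fell from 21.3, 21.6 and 22.1 FPKM to 0.961, 0.726 and 1.22 FPKM. VIT_03s0088g00810 fell from 5.80, 6.87 and 5.63 FPKM to 0, 0.0653 and 0 FPKM. VIT_03s0088g00750 rose, from 0.111, 0 and 0 FPKM to 1.20, 1.02 and 1.37 FPKM.

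**Figure D3:**
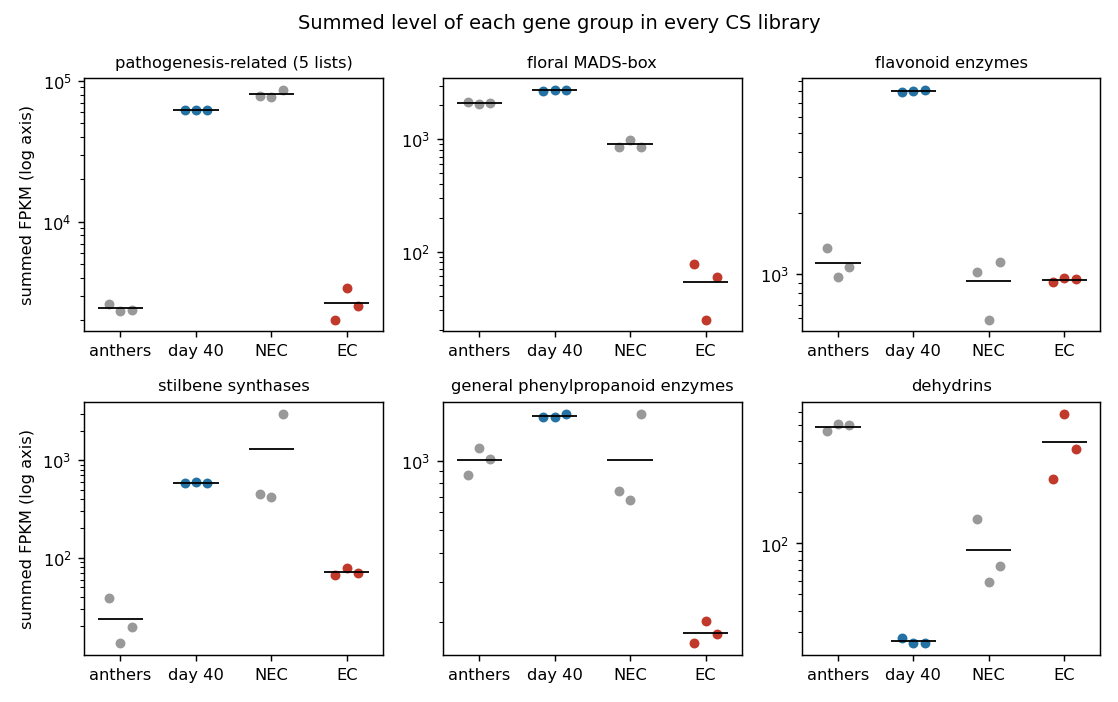
Summed FPKM (y, log axis, a different range in each panel) of 6 gene groups in each CS library of anthers, 40D callus (blue), NEC and EC (red), with 1 point per library and a line at the mean of the 3. The PR sum of EC (2019 to 3371) lies near that of anthers, the floral MADS-box sum of EC (24.7 to 77.4) is the lowest of the groups, and the flavonoid enzyme sum is high in 40D callus (7971 to 8137) alone.

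The floral MADS-box genes encode transcription factors that set the identity of flower organs, in classes A to D with SEPALLATA partners. Their RNA was abundant in 40D callus and low in EC. The summed level was 2700, 2727 and 2744 FPKM in the 40D libraries and 77.4, 24.7 and 59.6 FPKM in the EC libraries, a ratio of the means of 50.5. The sum was 2062 to 2148 FPKM in CS anthers, below the 40D libraries, and 845 to 991 FPKM in CS NEC. Whether the RNA in 40D callus was carried over from the flower was not tested. All 9 members among the 12 loci fell, with a median log2 fold change of -4.91, and no member was at 0 in an EC library. Of all members, 28.2% were lower. VIT_18s0041g01880 and VIT_17s0000g04990 were under 1 FPKM in every EC library. They passed the filter through 40D callus alone, which fixed their direction. These flower markers moved with every list that fell, and their part in those results was not tested.

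The B class, which specifies petals and stamens, held the largest share. VIT_18s0001g01760 had 1056, 1062 and 1079 FPKM in 40D callus and 46.5, 9.91 and 32.2 FPKM in EC, and fell by 5.37 on the log2(FPKM + 1) scale (SE 0.36, adjusted p = 6.2e-11). VIT_04s0023g02820, of the same class, went from 753, 756 and 774 FPKM to 9.42, 3.72 and 7.73 FPKM. EC replicate 2 was the lowest EC library at both loci. In the C and D classes, which specify stamens, carpels and ovules, VIT_10s0003g02070 went from 293, 297 and 294 FPKM to 11.9, 5.81 and 9.92 FPKM. VIT_18s0041g01880 went from 75.7, 73.0 and 74.0 FPKM to 0.345, 0.597 and 0.519 FPKM, while its mean in CS anthers was 0.513 FPKM. This locus was therefore high in 40D callus without being high in the anthers.

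Among SEPALLATA loci, whose products join the other classes in complexes, VIT_01s0010g03900 went from 343, 354 and 346 FPKM in 40D callus to 2.65, 2.09 and 2.65 FPKM in EC. VIT_14s0083g01050 went from 49.8, 51.3 and 49.5 FPKM to 1.71, 0.400 and 1.46 FPKM. The APETALA1 and FRUITFULL locus that was a member, VIT_17s0000g04990, was low throughout and fell from 3.11, 3.08 and 3.19 FPKM to 0.128, 0.232 and 0.296 FPKM. Among regulators of flowering time, the FLOWERING LOCUS T position, which encodes the mobile flowering signal, VIT_00s0218g00140, fell from 6.16, 5.77 and 5.96 FPKM to 1.12, 2.05 and 1.01 FPKM. The LEAFY position, VIT_17s0000g00150, a master regulator of floral meristems, was no member. It had 0.376, 0.128 and 0.272 FPKM in 40D callus and 0.661, 5.44 and 2.13 FPKM in EC, and its EC mean of 2.74 FPKM was 1.39 FPKM without EC replicate 2.

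**Figure D4:**
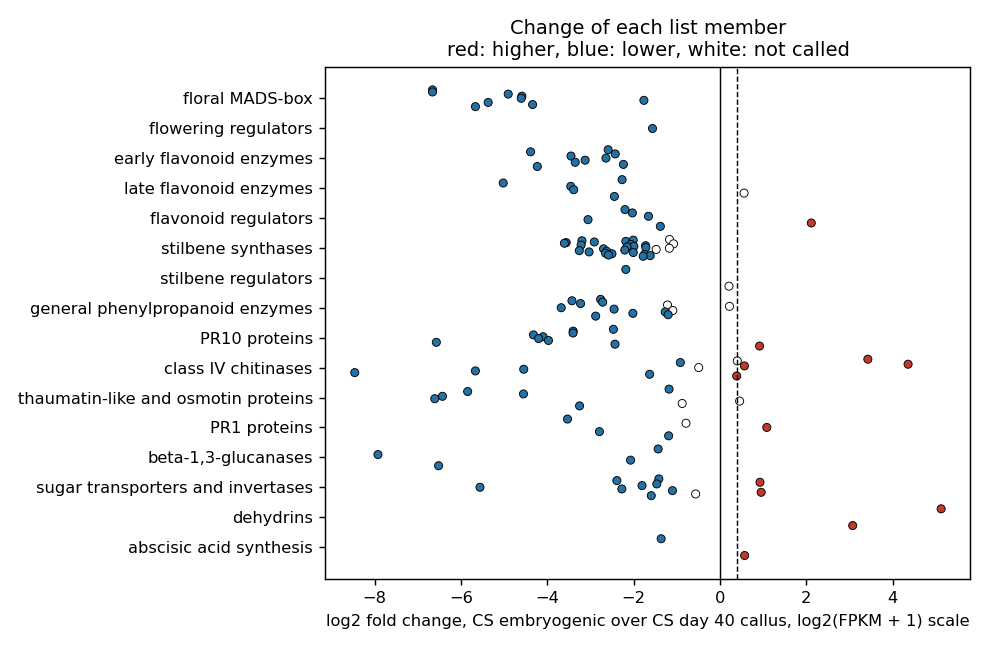
Log2 fold change of EC over 40D callus in CS on the log2(FPKM + 1) scale (x) for each of the 127 list members, by list (y), with loci called higher in red, lower in blue and not called in white. The dashed line is the median of all members, 0.40, and 100 of the 127 are lower.

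Flavonoids are made from phenylalanine through the general phenylpropanoid steps and then chalcone synthase, and their products include flavonols, anthocyanins and the building blocks of tannins. The enzymes of the pathway fell together. The 2 lists of flavonoid enzymes summed to 7971, 8037 and 8137 FPKM in 40D callus and 903, 951 and 938 FPKM in EC. Of their 15 members, 14 fell and 1 was not called, with a median log2 fold change of -3.12. Of all members, 28.2% were lower. The sum was 590 to 1139 FPKM in CS NEC and 964 to 1342 FPKM in CS anthers, so EC was within the range of NEC and below the range of anthers, and 40D callus stood above all 3 groups.

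In pathway order, the 3 loci of chalcone synthase, the entry enzyme, summed to 1767 ± 15.3 FPKM in 40D callus and 177 ± 15.3 FPKM in EC. The 2 loci of chalcone isomerase summed to 1899 ± 10.1 and 274 ± 18.7 FPKM, and the 2 of flavanone 3-hydroxylase to 2366 ± 62.8 and 193 ± 3.31 FPKM (SD, n = 3 throughout). Each of these 7 loci fell. VIT_18s0001g14310, a flavanone 3-hydroxylase locus, was the most abundant, at 1729, 1727 and 1819 FPKM in 40D callus and 98.7, 84.4 and 95.4 FPKM in EC, and fell by 4.23 on the log2(FPKM + 1) scale (SE 0.31, adjusted p = 2.4e-10). The 2 loci of flavonoid 3'-hydroxylase, which adds a hydroxyl group to the B ring, also fell. The chalcone synthase locus VIT_14s0068g00920 missed the threshold when the 3 40D libraries were counted as 1 sample (adjusted p = 0.054).

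Further down, dihydroflavonol reductase (VIT_18s0001g12800) went from 352, 364 and 359 FPKM to 59.1, 72.3 and 64.1 FPKM. Leucoanthocyanidin dioxygenase (VIT_02s0025g04720) went from 824, 830 and 870 FPKM to 56.7, 104 and 73.2 FPKM. Both serve anthocyanins and tannins, and both fell. Leucoanthocyanidin reductase, which makes catechin for tannins, fell at both loci, and VIT_01s0011g02960 went from 121, 131 and 130 FPKM to 1.78, 5.67 and 2.32 FPKM, a mean of 3.26 FPKM in EC and 2.05 FPKM without EC replicate 2. Anthocyanidin reductase (VIT_00s0361g00040), which makes epicatechin, went from 283, 295 and 288 FPKM to 53.7, 68.5 and 56.1 FPKM. Flavonol synthase (VIT_18s0001g03470) did not follow: it had 24.2, 24.4 and 22.9 FPKM in 40D callus and 62.7, 14.6 and 48.3 FPKM in EC. EC replicate 2 was below and the other two EC libraries above the 40D libraries, and the locus was not called (adjusted p = 0.32) but was called higher without EC replicate 2 (0.034).

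The regulators of the pathway include MYB factors, which pair with a bHLH (MYC) partner and a WD40 protein. Of 6 members among 11 loci, 5 fell. The MYBPA locus VIT_15s0046g00170, an activator of tannin genes, went from 174, 176 and 181 FPKM to 13.3, 33.6 and 18.8 FPKM. The MYC locus VIT_07s0104g00090 went from 35.9, 37.7 and 38.7 FPKM to 6.74, 11.3 and 7.76 FPKM, and both MYB5 loci and the WD40 locus VIT_16s0098g00870 fell as well. The other MYC locus, VIT_15s0046g02560, rose, from 5.25, 5.67 and 6.11 FPKM to 26.9, 29.5 and 27.2 FPKM, by 2.11 on the log2(FPKM + 1) scale. The 3 MYBA loci, activators of anthocyanin genes, were no members: their sum was 0.537 ± 0.206 FPKM in 40D callus, 0.0683 ± 0.0738 FPKM in EC and 120.0 ± 29.3 FPKM in NEC (SD, n = 3).

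The general phenylpropanoid steps, which supply both flavonoids and stilbenes, also fell. The list summed to 1566 ± 23.0 FPKM in 40D callus and 180 ± 20.2 FPKM in EC (SD, n = 3). Of 13 members, 10 fell and 3 were not called, with a median log2 fold change of -2.45. Of all members, 28.2% were lower. Some of the 13, phenylalanine ammonia-lyase loci on chromosome 16, were under 1 FPKM in every EC library. These passed the filter through 40D callus alone, which fixed their direction. With only loci at a mean of 5 FPKM or more over all libraries kept, 6 fell. The cinnamate 4-hydroxylase locus VIT_06s0004g08150 went from 760.2, 759.8 and 785 FPKM to 60.0, 82.5 and 70.5 FPKM. Of the loci of phenylalanine ammonia-lyase, the first enzyme of the pathway, VIT_08s0040g01710 went from 214, 215 and 216 FPKM to 32.6, 31.8 and 31.3 FPKM. A second, VIT_13s0019g04460, went from 163, 160 and 170 FPKM to 10.3, 14.0 and 11.8 FPKM. The groups did not overlap at any of the 3.

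Stilbene synthases compete with chalcone synthase for the same substrates and make resveratrol. The 49 loci lie in tandem on chromosomes 16 and 10, are near-identical and may share reads, so their sum is the firmer value. It was 582, 604 and 585 FPKM in 40D callus and 67.5, 78.1 and 70.8 FPKM in EC, a ratio of the means of 8.18. Of 28 members, 24 fell and 4 were not called, with a median log2 fold change of -2.17. All 28 had the EC libraries below the 40D libraries, against 5742 of all 19265 members. Some of the 28 were under 1 FPKM in every EC library. These passed the filter through 40D callus alone, which fixed their direction. When the 3 40D libraries were counted as 1 sample, 14 fell. VIT_16s0100g01100, the most abundant, had 196, 193 and 195 FPKM in 40D callus and 13.1, 30.3 and 18.3 FPKM in EC. VIT_16s0100g01200 had 55.3, 54.9 and 54.9 FPKM and 16.9, 13.1 and 16.2 FPKM, with an adjusted p of 0.035, and its call was lost without any 1 of the 6 CS libraries (0.057 to 0.081). VIT_16s0100g00780 had 47.9, 51.4 and 50.5 FPKM and 3.28, 3.59 and 3.07 FPKM.

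The stilbene sums of CS NEC, which enter the pooled spread of the fit, were 447, 422 and 3002 FPKM. NEC replicate 3 decided their mean, 1290 FPKM with it and 435 FPKM without it. In CS anthers the sum was 13.3 to 38.9 FPKM. Of the 2 MYB loci that activate stilbene synthase genes, VIT_05s0049g01020 fell from 28.7, 31.7 and 28.0 FPKM to 4.88, 7.22 and 5.22 FPKM. The other, VIT_07s0005g03340, had 21.7, 23.3 and 21.3 FPKM in 40D callus and 25.9, 25.1 and 25.9 FPKM in EC. It was not called (adjusted p = 0.67), although its groups did not overlap, and was called higher with the 2 CS calli fitted alone (0.0066).

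The sugar transporters and invertases, which move sugars between compartments and split sucrose, showed smaller shifts. Their sum was 472 ± 8.72 FPKM in 40D callus and 219 ± 1.18 FPKM in EC (SD, n = 3). Of 11 members, 8 fell, 2 rose and 1 was not called, with a median log2 fold change of -1.46. All 4 hexose transporters fell, and VIT_11s0149g00050 went furthest, from 101, 99.8 and 102 FPKM to 0.988, 1.51 and 1.03 FPKM. The 2 vacuolar invertases summed to 35.6 ± 1.01 FPKM in 40D callus and 5.57 ± 1.07 FPKM in EC, and both fell, as did the cell wall invertase. The tonoplast transporters, which load the vacuole, split. VIT_18s0122g00850 fell from 89.6, 87.5 and 91.2 FPKM to 29.8, 26.8 and 30.5 FPKM, and VIT_03s0038g03940 rose from 21.7, 22.3 and 24.2 FPKM to 43.3, 45.8 and 43.2 FPKM. The sucrose transporter VIT_18s0001g08210 rose from 29.6, 31.1 and 29.4 FPKM to 57.6, 61.2 and 58.4 FPKM, and the other, VIT_18s0076g00250, was not called.

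Dehydrins, hydrophilic proteins that accumulate in seeds and in dehydrated tissue, formed a list of only 2 members, and both rose. Of all members, 55.3% were higher, so the direction alone does not set this short list apart. VIT_03s0038g04390 had 3.77, 3.47 and 3.36 FPKM in 40D callus and 147, 170 and 154 FPKM in EC, and rose by 5.12 on the log2(FPKM + 1) scale (SE 0.28, adjusted p = 3.3e-12). Its mean was 6.51 FPKM in CS NEC and 0.987 FPKM in CS anthers, so of the 4 CS tissues EC held the highest level. VIT_04s0023g02480 had 23.9, 22.4 and 22.4 FPKM in 40D callus and 92.3, 414 and 209 FPKM in EC, and rose by 3.07 (SE 0.47, adjusted p = 7.2e-06). Its EC libraries varied widely, with a mean of 238 FPKM that was 150 FPKM without EC replicate 2. The CS anthers, at a mean of 489 FPKM, were higher still.

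The 2 loci of 9-cis-epoxycarotenoid dioxygenase, which makes the precursor of abscisic acid, the hormone of seed maturation and drought, went in opposite directions. VIT_10s0003g03750 fell from 9.60, 9.12 and 9.13 FPKM to 2.16, 4.37 and 2.76 FPKM. VIT_19s0093g00550 rose from 8.11, 8.48 and 7.78 FPKM to 13.9, 10.9 and 12.9 FPKM, a call that was lost under median-of-ratios scaling (adjusted p = 0.27) and with the 3 40D libraries counted as 1 sample (0.077).

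Over all lists, 100 of 127 members were lower, 12 higher and 15 not called, against 28.2% lower and 55.3% higher over all members. The lists were chosen with earlier results of these data known. Some listed loci passed the filter only through the callus in which they were higher, which fixed their direction. This contrast and those of single lists with all members are therefore descriptions. The lists hold genes of defence, flowers and phenolics in the main, and as the files name no locus, most of the loci that rose in EC could not be grouped.

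The largest changes came from unnamed loci. VIT_01s0011g04570, on chromosome 1, had 14.3, 3.85 and 5.07 FPKM in 40D callus and 25275, 6979 and 20046 FPKM in EC, where it was the most abundant locus of replicates 1 and 3. It rose by 10.96 on the log2(FPKM + 1) scale (SE 0.87, adjusted p = 7.6e-10). Its 40D mean of 7.74 FPKM was 4.46 FPKM without 40D replicate 1. In CS NEC it had 226, 166 and 398 FPKM and in CS anthers 4.04, 15.9 and 5.86 FPKM. VIT_05s0051g00530, on chromosome 5, had 3.97, 0.142 and 1.44 FPKM in 40D callus and 3099, 2091 and 2880 FPKM in EC, and rose by 10.11 (SE 0.58, adjusted p = 6.8e-12). Its 40D mean of 1.85 FPKM was 0.790 FPKM without 40D replicate 1.

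Of the loci that fell furthest, VIT_19s0090g01370 on chromosome 19 had 2430, 2333 and 2030 FPKM in 40D callus and 0.508, 8.10 and 2.02 FPKM in EC, and fell by 9.35 (SE 0.64, adjusted p = 8.4e-11). Its EC mean of 3.54 FPKM was 1.27 FPKM without EC replicate 2. In CS NEC it stood at 715, 901 and 1362 FPKM. VIT_11s0016g02110 on chromosome 11 had 975, 999 and 1009 FPKM in 40D callus and 0.771, 0.896 and 0.541 FPKM in EC, and fell by 9.17 (SE 0.20, adjusted p = 2.0e-17). It was also low in CS NEC, at 2.13, 1.54 and 1.53 FPKM, and had a mean of 8.31 FPKM in CS anthers. The first of these loci was thus high in both 40D callus and NEC, and the second in 40D callus.

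Some loci next to each other in the identifier order were called in the same direction. A run was at least 5 neighbouring members, all called in one direction with a log2 fold change of 1 or more. At most 1 identifier was skipped between neighbours. There were 36 runs among the higher loci, with 203 loci, and 11 among the lower, with 70 loci. Over all members, 28.5% were called higher and 14.7% lower at this threshold, so some runs arise from these shares alone. Whether there were more runs than the shares give was not tested. The lower runs included one of 6 PR10 loci and one of 11 loci on chromosome 16, of which 10 are listed stilbene synthase loci. A run of 10 unlisted loci on chromosome 5 went from a sum of 13817 ± 192 FPKM in 40D callus to 1289 ± 6.37 FPKM in EC, and had 3492 ± 938 FPKM in NEC and 115 ± 12.2 FPKM in anthers (SD, n = 3). None of the higher runs held a listed locus. The one with the highest level in EC, 5 loci on chromosome 4, went from 317 ± 7.49 to 1486 ± 297 FPKM and had 1703 ± 82.4 FPKM in NEC, and the next, 6 loci on chromosome 7, went from 89.8 ± 3.29 to 812 ± 401 FPKM and had 61.1 ± 10.9 FPKM in NEC. The third, 5 loci on chromosome 5, went from 37.7 ± 1.79 to 799.6 ± 141 FPKM and had 43.3 ± 3.03 FPKM in NEC. Neighbours may be copies of one gene or share reads, so a run is not a set of independent loci.

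Sangiovese offered the same comparison in libraries of its own, with none shared. Of the 10650 loci higher in CS EC, 8362 were higher in SG EC too, which is 78.5% of the CS calls and 87.0% of the 9617 SG calls among these members. Of the 5429 lower in CS, 4115 were lower in SG, 75.8% of the CS calls and 70.7% of the 5823 SG calls. Over all 19265 members, 9617 were higher and 5823 lower in SG, and 55.3% were higher and 28.2% lower in CS. Calls this common would overlap in part even with no relation between the cultivars. The size of the change was tested as the difference between the cultivars, the SG change minus the CS change. It was above 0 for 3669 members (19.0%) and below 0 for 6595 (34.2%), at an adjusted p under 0.05. That split depended on scaling: 35.7% of these calls were above 0 on the deposited FPKM and 47.4% after median-of-ratios scaling. In 618 loci the change was called higher in CS and lower in SG and in 414 the reverse. The difference was called for all 1032, but it comes from the same fit. Its call follows from the opposite calls and adds no separate support.

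**Figure D5:**
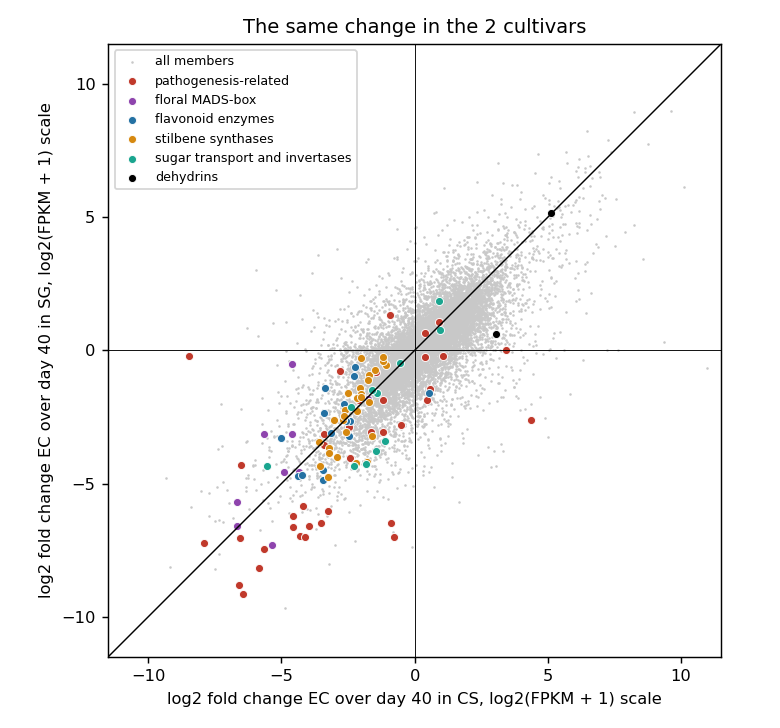
Log2 fold change of EC over 40D callus on the log2(FPKM + 1) scale in CS (x) and in SG (y) for each of the 19265 members, with 6 gene groups coloured and the line of equal change in black. Most listed loci lie at the lower left, with negative fold changes in both cultivars, and many PR loci lie below the line.

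Among the thaumatin-like and osmotin loci, the difference was below 0 for 7 of 8 members, of which 5 were called lower in CS and 2 were not called there. VIT_02s0025g04330, one of those not called in CS, went from 996, 1036 and 997 FPKM in SG 40D callus to 41.3, 1.11 and 15.0 FPKM in SG EC, a difference from CS of -5.61 (SE 0.94, adjusted p = 6.7e-05). Among PR10 loci, 4 of 10 had a difference below 0 and none above, and among PR1 loci 4 of 5 were below and 1 above. The PR1 locus VIT_03s0088g00700 went from 219, 185 and 222 FPKM to 1.86, 0 and 0.471 FPKM in SG, a difference of -6.23 (SE 0.64, adjusted p = 2.4e-07). Over all members, 34.2% had a difference below 0, a share that depended on scaling. The PR10 share was close to it.

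Several loci moved much more in CS. The chitinase locus VIT_05s0094g00350, which fell by 8.46 in CS, was already low in SG 40D callus, at 0.931, 1.14 and 0.471 FPKM, and was at 0.593, 0.804 and 0.364 FPKM in SG EC (difference 8.25, SE 0.34, adjusted p = 9.0e-13). The SEPALLATA locus VIT_14s0083g01050, which fell by 4.60 in CS, had 78.2, 77.7 and 78.1 FPKM in SG 40D callus and 49.4, 61.1 and 55.5 FPKM in SG EC (difference 4.11, SE 0.26, adjusted p = 3.2e-10). It fell less in SG and was still abundant in SG EC. VIT_01s0011g04570, the locus with the largest rise in CS, stood at 2532, 2554 and 2394 FPKM in SG 40D callus and 5870, 294 and 2280 FPKM in SG EC (difference -11.6, SE 1.23, adjusted p = 3.3e-07).

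Others moved alike or split. The dehydrin VIT_03s0038g04390 rose from 10.5, 11.97 and 11.1 FPKM to 384, 473 and 439 FPKM in SG, and the difference from CS was 0.02 (SE 0.40, adjusted p = 0.97). The second dehydrin, VIT_04s0023g02480, had 56.1, 57.1 and 56.5 FPKM in SG 40D callus and 153, 51.4 and 83.9 FPKM in SG EC. The SG groups overlapped, with SG EC replicate 2 below every SG 40D library. Its change in SG was below its rise in CS (difference -2.46, SE 0.67, adjusted p = 0.0047). The stilbene regulator VIT_07s0005g03340 fell in SG, from 30.4, 27.2 and 28.2 FPKM to 7.64, 2.66 and 4.05 FPKM (difference -2.65, SE 0.59, adjusted p = 0.0010). Flavonol synthase was 26.7, 26.3 and 24.8 FPKM in SG 40D callus and 12.002, 5.35 and 7.74 FPKM in SG EC (difference -2.14, SE 0.72, adjusted p = 0.018).

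The spread within the groups was uneven. For loci with a mean of 100 to 1000 FPKM, the median coefficient of variation over the 3 libraries was 2.57% in CS 40D callus and 6.39% in CS EC, and for loci at 1000 FPKM or more it was 2.67% and 12.6%. In CS EC, replicate 3 had the middle value of the 3 in 69.0% of the loci at 10 FPKM or more, replicate 1 in 18.8% and replicate 2 in 12.2%. For replicate 3 the share was 62.9% in SG EC, 65.5% in CS anthers and 74.6% in SG anthers. It was 31.0% in CS 40D callus, 33.2% in SG 40D callus, 34.5% in CS NEC and 40.5% in SG NEC. Without EC replicate 3, 10351 members were higher and 5237 lower. With each 40D group counted as 1 sample, 9554 were higher and 4618 lower, while the calls of a difference between the cultivars went down to 2032 above 0 and 3686 below.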

How the data were processed

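Per the labels' protocols, total RNA from about 100 mg of tissue went into non-directional TruSeq libraries. The submitters' processing notes name Cufflinks 2.1.1, TopHat2 2.0.9 and CASAVA 1.8.2; the build and the annotation were not given in the sources used here. In the table that the authors deposited are FPKM values, 1 column per library, with sums of 927774 to 938765 in CS 40D callus and 791724 to 814622 in CS EC. FPKM is not a count, and sequencing depth is unknown. A listed 0 may be a failed estimate, since 56 loci had a 0 beside a value of at least 10 FPKM within a CS group. None of the locus identifiers matched the reference gene table.

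Differences were tested on log2(FPKM + 1) with limma 3.58.1 (R 4.3.3), with a coefficient for each of 8 groups, all 24 libraries fitted together and a trend of the spread with level. The 21568 loci that reached 1 FPKM in at least 3 of the 24 libraries entered the fit and the Benjamini-Hochberg adjustment, and counts are over the members. Fold changes on this scale understate low loci. Members, lists and tests were chosen with earlier results of these data known. Named loci are the 2 with the largest change each way (at least 5 FPKM in the higher group, no overlap, no such 0), any member of lists of up to 12 loci, and in longer lists the 3 most abundant and those against the list's direction. The non-member MYBA and LEAFY loci, and those flagged, were named after their values were seen. Comparisons with CS NEC and anthers share libraries with this one, so only levels are given. Alternatives were another pseudocount, other filters and scalings, robust moderation, fewer groups, a replicate block and leaving out each library.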

Additional observations from a re-analysis of the deposited data

Results flagged for a closer look

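In the class IV chitinase list, 3 loci changed in opposite directions in the 2 cultivars. The difference is the SG change minus the CS change (log2(FPKM + 1) scale, limma). It comes from the same fit as the 2 changes, so its call follows from 2 opposite calls and adds no separate support. VIT_05s0094g00280 rose in CS, as described above, and fell in SG from 6.28, 5.43 and 6.41 FPKM to 0.349, 0 and 0.104 FPKM, a difference of -6.98 (SE 0.45, adjusted p = 4.7e-10). VIT_05s0094g00300 rose in CS from 15.5, 17.005 and 16.7 FPKM to 28.7, 19.9 and 26.6 FPKM and fell in SG from 23.9, 21.98 and 22.7 FPKM to 13.5, 4.51 and 7.21 FPKM, a difference of -2.02 (SE 0.31, adjusted p = 2.4e-05). Its CS call was lost under median-of-ratios scaling (adjusted p = 0.43), with each 40D group counted as 1 sample (0.17), and without CS 40D replicate 1 (0.064), CS EC replicate 1 (0.094) or CS EC replicate 3 (0.070), so its rise in CS is uncertain. VIT_05s0094g00240 fell in CS from 1.46, 1.37 and 1.22 FPKM to 0.402, 0.0918 and 0.250 FPKM and rose in SG from 0.881, 0.855 and 0.897 FPKM to 3.26, 3.78 and 4.23 FPKM, a difference of 2.25 (SE 0.26, adjusted p = 1.1e-06). These loci are tandem copies that may share reads.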

How the results depend on the processing

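The counts of members higher or lower in CS EC, and of those whose change differed between the cultivars, moved by less than 1.5 times under every alternative except these. A log2 fold change of at least 1 left 5481 higher and 2830 lower, and 1460 and 2450 for the difference between cultivars. Counting each 40D group as 1 sample left 2032 above 0 and 3686 below for that difference. Leaving out 1 library gave 10342 to 10606 higher and 5207 to 5300 lower, and 3403 to 3701 and 5998 to 6813 for the difference. Median-of-ratios scaling gave 8126 higher and 7545 lower. Replicate numbers paired the calli weakly at most. The correlations of same-numbered deviations were 0.02, 0.05 and 0.10, and those of deviations with other numbers ran from -0.072 to -0.005. A replicate block gave 10640 higher and 5406 lower, and 3638 and 6520 for the difference. Of 544 list counts, 527 stayed within 1.5 times. Of 2066 values of the change in CS at 131 named or listed loci, none reversed, 73 lost their call and 21 gained one. The cultivar differences of single loci are not among these values. Stilbene synthase and phenylalanine ammonia-lyase loci near the threshold made up most of the losses, and fitting the 2 CS calli alone made up most of the gains. Depth is unknown, which limits statements on loci near 0.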
